A study of Drosophila melanogaster with 2 samples.

Results

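The genes described here are 57 homeobox genes of Drosophila melanogaster that were listed by symbol as lying outside the Hox clusters. All 57 symbols matched 1 protein-coding gene each, among the 13968 protein-coding genes that Ensembl release 115 annotates on the arms. The list goes against its label in 1 case. The pair-rule gene ftz lies on 3R from 6864324 to 6866244, between Scr (6823120 to 6849981) and Antp (6896253 to 6999228), and so inside the Antennapedia complex. The other 56 symbols were taken as listed, and ftz was kept.

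Binding of the ETS-family transcription factor Ets96B was mapped by chromatin immunoprecipitation and sequencing (ChIP-seq). The single group comprised 2 biological replicates, numbered 2 and 3, of a transgenic line that stably expressed Ets96B with eGFP at its C terminus. Chromatin came from whole prepupae of pooled sex aged 24 h and was precipitated, per the description in the labels, with an antibody against GFP. The antibody field of the labels names Ets96B instead, and which of them holds cannot be settled here, so peaks of untagged Ets96B cannot be told apart from those of the fusion. Peaks had been called against a control alignment, which was not analysed here, and nothing in the labels describes an untagged or untreated group of animals. Because whole animals were used, a peak cannot be assigned to a tissue, and a site bound in few cells cannot be told apart from a site bound weakly in many.

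Homeobox genes encode transcription factors that bind DNA through a homeodomain, a helical fold that commonly reads a core of TAAT. In the fly they specify segments, limbs, eyes, muscles and neurons, and many are spread over long loci with regulatory elements far from the start site. At the prepupal stage many of them act in imaginal discs, histoblasts and the remodelling nervous system. ETS proteins bind a GGA core through a different fold.

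A peak was placed by its summit, the position of highest signal. A gene was scored for a summit within 500 bp of any of its transcription start sites (TSSs), in its body, and within 5 kb of it. The reproducible list held 8015 peaks past the authors' threshold for the irreproducible discovery rate (IDR). The pooled list and both full replicate lists held 30000 peaks each, so list size says nothing of how deeply a library was read, and the files give no read depth. The signal value of a peak is a score set by the authors and serves to rank peaks in 1 list. Within the reproducible list they ran from 148 to 5811. Each replicate was represented by its own 8015 strongest peaks unless the full list is named.

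Over the 57 genes and the 5 kb to either side there were 71 reproducible summits, and 13 windows of 101 bp around such summits are printed as examples. The windows are on the plus strand of dm6, read from the RefSeq copy of that assembly. Capitals mark 3 kinds of word, each searched on both strands: the homeodomain core TAATTA, the word read by factors of the GATA family (AGATAA or AGATAG or TGATAA or TGATAG), and the word GAGAG, the core of GAGA-factor sites. In capitals GAGAG may appear as CTCTC and a GATA word as CTATCT, for example. A match is a match of letters and was not tested as a binding site. The first 3 windows are those with the highest signal values that lay nearest to a start site of one of the 57 genes, and they hold none of these words.
ct, upstream (chrX:7604645-7604745): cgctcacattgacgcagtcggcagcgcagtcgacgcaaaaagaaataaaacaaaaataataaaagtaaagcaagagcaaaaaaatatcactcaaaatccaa
tin, start site (chr3R:21378709-21378809): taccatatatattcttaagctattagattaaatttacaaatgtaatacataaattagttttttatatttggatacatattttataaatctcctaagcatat
zfh1, intron (chr3R:30781730-30781830): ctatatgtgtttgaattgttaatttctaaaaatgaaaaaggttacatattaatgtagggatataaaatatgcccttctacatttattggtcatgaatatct
The next 6 are from the 9 summits that hold TAATTA, in the order of their signal values, from 742 at nub to 152 at caup. GAGAG was present too at 4 of those 9 summits, and at none of the 5 with the highest signal values.
nub, intron (chr2L:12602329-12602429): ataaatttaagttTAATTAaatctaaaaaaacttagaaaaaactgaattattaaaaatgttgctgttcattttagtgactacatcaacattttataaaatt
pros, beyond the 3′ end (chr3R:11409874-11409974): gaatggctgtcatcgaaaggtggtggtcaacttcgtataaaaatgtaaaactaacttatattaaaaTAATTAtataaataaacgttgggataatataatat
pros, intron (chr3R:11360403-11360503): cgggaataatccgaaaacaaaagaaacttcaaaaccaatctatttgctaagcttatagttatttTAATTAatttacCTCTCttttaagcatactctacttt
Lim1, intron (chrX:8774177-8774277): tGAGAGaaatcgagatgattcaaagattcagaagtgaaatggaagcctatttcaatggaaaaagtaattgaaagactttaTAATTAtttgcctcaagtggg
zfh1, upstream (chr3R:30761369-30761469): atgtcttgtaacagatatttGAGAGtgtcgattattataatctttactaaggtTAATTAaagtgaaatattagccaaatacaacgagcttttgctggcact
caup, intron (chr3L:12616561-12616661): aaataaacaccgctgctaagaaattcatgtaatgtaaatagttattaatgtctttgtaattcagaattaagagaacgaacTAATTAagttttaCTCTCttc
The last 4 lie within 500 bp upstream of a start site and are shown because their base composition differs: the ct window has a G+C content of 36.6%, against 60.4% at oc, 54.5% at vvl and 52.5% at mirr.
ct, start site (chrX:7608134-7608234): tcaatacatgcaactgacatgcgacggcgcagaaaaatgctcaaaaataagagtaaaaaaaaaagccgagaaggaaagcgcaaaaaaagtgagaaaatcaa
oc, start site (chrX:8650839-8650939): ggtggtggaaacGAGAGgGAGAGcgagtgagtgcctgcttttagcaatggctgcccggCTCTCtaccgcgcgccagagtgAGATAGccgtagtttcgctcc
mirr, start site (chr3L:12693381-12693481): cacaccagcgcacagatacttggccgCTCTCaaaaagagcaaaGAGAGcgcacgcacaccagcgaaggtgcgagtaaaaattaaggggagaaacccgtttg
vvl, start site (chr3L:6789882-6789982): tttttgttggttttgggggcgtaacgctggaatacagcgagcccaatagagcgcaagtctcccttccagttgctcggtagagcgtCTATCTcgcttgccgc
The tin window, by contrast, has a G+C content of 17.8%.

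A reproducible summit stood within 500 bp of a start of 9 of the 57 homeobox genes, which is 15.8% (exact 95% interval 7.48 to 27.9), against 20.5% of all protein-coding genes. The gene body held a summit in 16 of the 57 genes, or 28.1% (17.0 to 41.5), against 15.2% of all protein-coding genes. Within 5 kb there was a summit at 30 genes, or 52.6% (39.0 to 66.0), against 53.1% of all protein-coding genes. At the TSS and within 5 kb the interval included the share of all genes, and in the body it lay above that share. These intervals cover counting error only, and genes are not replicates. A summit near the starts of several genes counted for each of them. With each summit given only to the gene of its nearest TSS, the TSS shares were 15.8% of the homeobox genes and 15.4% of all genes.

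The homeobox genes are long: their median length was 12.4 kb, against 2.16 kb for all protein-coding genes, and 36 of 57 (63.2%) have a single TSS, against 73.5%. Each was therefore also set against every other protein-coding gene of the same number of TSSs and the same decile of length. Same-class genes had a summit in 27.4% of cases at the TSS, in 38.3% in the body and in 65.1% within 5 kb. The homeobox shares minus these were -11.6, -10.2 and -12.5 percentage points, so all 3 were lower in the homeobox genes. The same-class shares lay inside the counting intervals of the homeobox genes in all 3 cases.

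The strongest peaks of each replicate gave similar counts. Replicate 2 had a TSS summit at 9 of the 57 genes (all genes 21.5%), a body summit at 14 (all genes 15.8%) and a summit within 5 kb at 30 (all genes 54.7%). Replicate 3 had a TSS summit at 8 (all genes 20.4%), a body summit at 15 (all genes 15.1%) and a summit within 5 kb at 30 (all genes 53.3%). The same-class shares were 28.9%, 39.5% and 67.1% in replicate 2, each above the upper bound of the homeobox interval, which was 27.9, 37.8 and 66.0%. In replicate 3 they were 27.5%, 38.2% and 65.6%, of which the first lay above the upper bounds of 25.8, 39.7 and 66.0%. The direction was the same in both replicates, and the same-class shares lay near the upper bounds throughout.

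**Figure D1:**
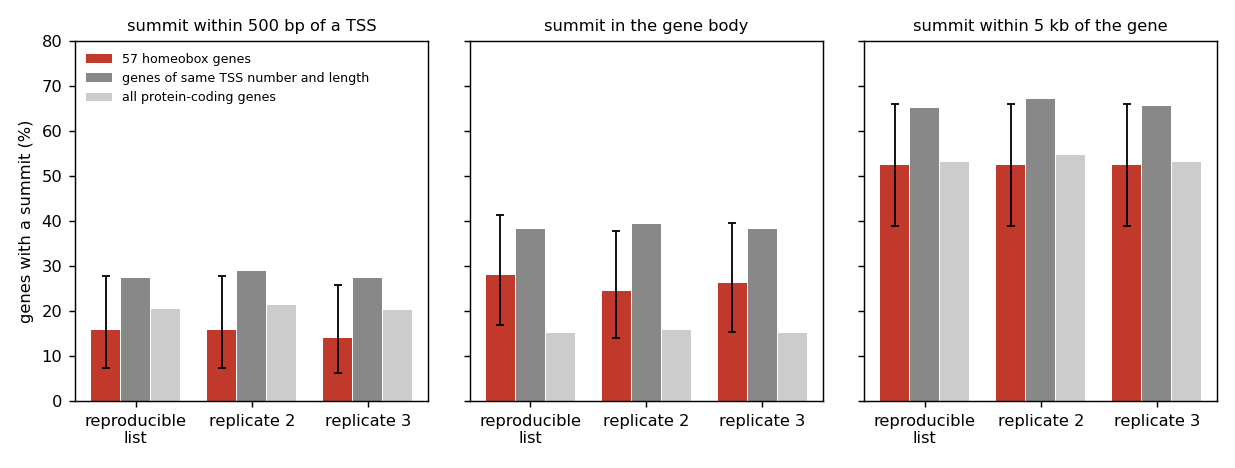
Share of genes in percent with a summit within 500 bp of a TSS, in the gene body and within 5 kb, for the 57 homeobox genes, for genes of the same TSS number and length, and for all protein-coding genes, in the reproducible list and in the 8015 strongest peaks of each replicate. Bars for the homeobox genes carry exact 95% binomial intervals; in all 9 groups of bars they stand below the bar of the same-class genes, as 15.8% against 27.4% at the TSS in the reproducible list.

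Per length, the gene bodies of the homeobox genes held 36 summits in 0.991 Mb, or 0.363 per 10 kb (exact Poisson 95% interval 0.254 to 0.503), against 0.542 per 10 kb in all protein-coding gene bodies (0.527 to 0.557). The density was 0.303 in replicate 2 (0.204 to 0.432; all genes 0.544) and 0.353 in replicate 3 (0.246 to 0.491; all genes 0.543). The 4 genes on arm 4 held no reproducible summit, and without them the density was 0.399 (0.280 to 0.553), an interval that includes the value for all genes. Left out in the same way, the replicates gave 0.333 (0.225 to 0.475) in replicate 2 and 0.388 (0.270 to 0.540) in replicate 3, and the reproducible list with 5 kb to either side of each gene gave 0.498 (0.389 to 0.628; all genes 0.637). In these 3 cases the interval lay below the value for all genes. The weaker peaks, those of the pooled list outside the reproducible list, showed no such gap: they had a density of 1.63 per 10 kb (1.39 to 1.91) in homeobox genes and 1.59 (1.57 to 1.62) in all genes. The Poisson intervals treat summits as independent, although 7 genes held 36 of the 71 summits within 5 kb, so they are likely too narrow. The densities of all genes include arm 4 and were not matched on length or TSS number. The nearest reproducible summit lay a median of 10 kb from a TSS of a homeobox gene, with quartiles of 4.22 and 20.3 kb. Over all protein-coding genes the median was 5.70 kb. Each homeobox gene was also given the median of its same-class genes, and the median of these values was 5.98 kb.

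Of the 71 summits, 10 lay within 500 bp of a TSS of the homeobox gene, 35 elsewhere in its body, 10 upstream and 16 downstream. No summit was in reach of more than 1 of the 57 genes. The nearest protein-coding TSS belonged to the homeobox gene in reach for 49 summits and to another gene for 22. Among the latter is a summit in reach of inv that lay nearest to en, itself a homeobox gene of the list. Introns held 38 of the 71 (53.5%; all reproducible summits 44.4%), promoters of any gene 16 (22.5%; all 30.6%) and intergenic sequence 16 (22.5%; all 21.0%). The remaining summit lay in a coding exon of otp, a class that held 9 of all 8015 summits.

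The summits were unevenly shared. The 7 genes ct, pdm3, inv, mirr, Lim1, pros and so had 4 or more each and held 36 of the 71. Awh, tup and zfh1 had 3, and Dll, caup, nub, tin, unpg and vvl had 2. A single summit was in reach of Dr, Optix, Rx, Six4, al, ap, ara, cad, en, lbl, oc, otp, pdm2 and ro. The other 27 genes had none.

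**Figure D2:**
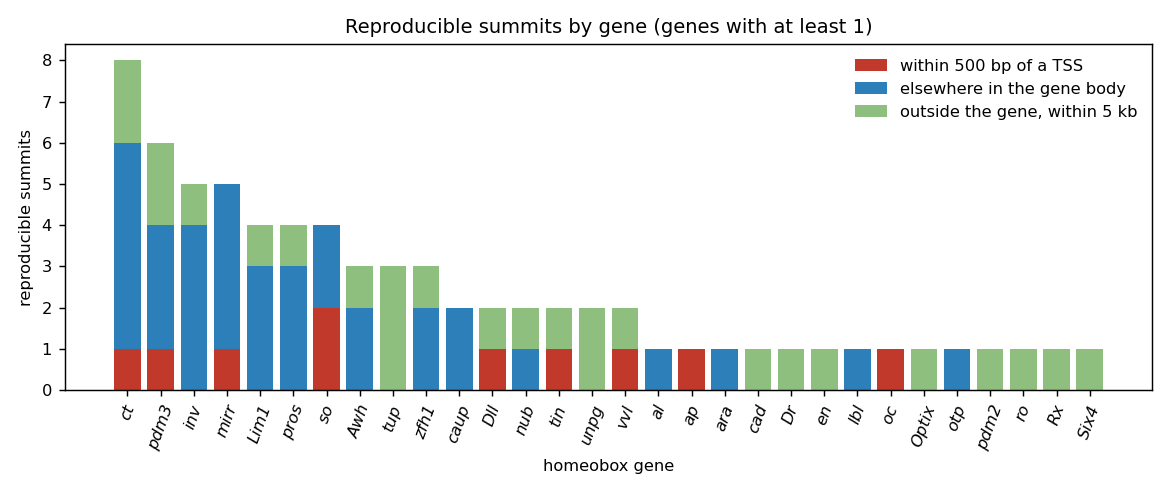
Reproducible summits (vertical axis, count) by homeobox gene for the 30 genes with at least 1, stacked by position: within 500 bp of a TSS, elsewhere in the gene body, or outside the gene within 5 kb. The counts run from 8 at ct to 1 at 14 genes, and the TSS part is present in 9 genes.

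Signal values of the 71 summits were lower than those of the list as a whole. Their median was 238 (quartiles 185 and 361), against 293 over the whole list (199 and 518), and the best rank was 386 of 8015. With the ranks cut into 5 equal classes from strongest to weakest, there were 8, 10, 16, 18 and 19 summits. The corresponding numbers were 9, 8, 11, 17 and 19 among 64 summits in replicate 2, and 8, 11, 17, 16 and 17 among 69 in replicate 3. In both replicate lists as in the reproducible list, the weaker classes thus held more of these summits than the stronger ones. The ratio of the homeobox median to the median of the list was 0.813 in the reproducible list, 0.808 in replicate 2 and 0.839 in replicate 3.

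A peak of the full replicate 2 list overlapped 69 of the 71 summits' peaks, and one of the full replicate 3 list overlapped 70. Over the 68 found in both, signal values had a Spearman rho of 0.635 between the replicates, against 0.797 over 7901 reproducible peaks, given as a description since peaks of 1 library share its depth. The value was higher in replicate 3 at 61 of the 68, as it was at 7295 of the 7901, so absolute values are not compared between the lists.

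**Figure D3:**
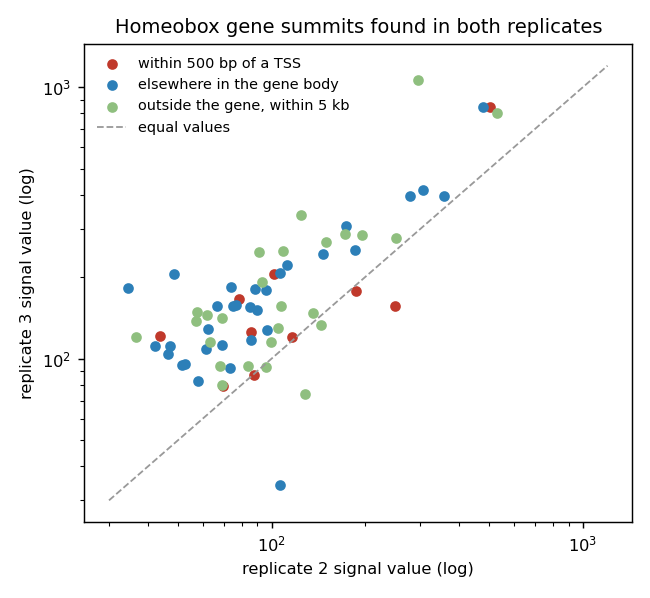
Signal value in replicate 2 (horizontal, log scale) against replicate 3 (vertical, log scale) for the 68 homeobox gene summits found in both full replicate lists, coloured by position relative to the gene, with a dashed line of equal values. Most points (61 of 68) lie above the line.

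The 9 genes with a summit at a TSS belong to 7 homeodomain classes. The highest value was at tin (FBgn0004110, 3R, 21378977 to 21381970), an NK-type gene required to specify the heart. Its summit lay at -218 bp, where a minus sign means upstream of the TSS, with a signal value of 1342 in the reproducible list, 502 in replicate 2 and 846 in replicate 3. It ranked 395, 403 and 398 in these 3 lists, so both replicates placed it alike. Signal values given in threes from here on follow the same order of lists. A weaker tin summit at -2585 bp had values of 215, 69.2 and 141, and it lay within mod(mdg4), whose TSS was nearer.

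Dll (FBgn0000157, 2R, 24814822 to 24835667), which patterns the distal limbs, had its TSS summit at -79 bp with values of 403 in the reproducible list, 249.5 in replicate 2 and 156 in replicate 3. This was the closest to a start among the 57 genes. Its other summit, downstream, had values of 206, 57.4 and 149, and CG3650 was the gene with the nearest TSS. The sine oculis gene so (FBgn0003460, 2R, 7419350 to 7434872), which acts in eye development, had a pair of TSS summits. They lay at -428 bp (369, 187 and 178 in the reproducible list, replicate 2 and replicate 3) and at -223 bp (238, 116 and 119.6). A further pair lay within the gene, with values of 393, 146 and 243 and of 231, 90.0 and 151, both nearer to the TSS of CG11145.

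The start of ct (FBgn0004198, X, 7608428 to 7678859), which specifies external sense organs and the wing margin, had a summit at -244 bp with values of 312, 102 and 205. At oc (FBgn0004102, X, 8630159 to 8650681), needed in the head and in photoreceptors, the summit lay at -208 bp with values of 233, 78.3 and 166. These starts were hit in the 8015 strongest peaks of both replicates as well, as were those of tin, Dll, so and pdm3. The POU gene pdm3 (FBgn0261588, 2R, 8327490 to 8396280), which acts in neurons, had its TSS summit at -138 bp with values of 188, 85.8 and 125.

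The remaining 3 TSS summits were near the weak end of the list and were less stable. The summit of mirr (FBgn0014343, 3L, 12693639 to 12710249), an Iroquois gene that patterns the dorsal eye, lay at -208 bp with values of 181, 87.4 and 86.7. Its rank in replicate 3 was 8530, outside the peaks taken. The POU gene vvl (FBgn0086680, 3L, 6790158 to 6794941), which acts in the tracheal system, had its summit at -226 bp with values of 160.0, 43.6 and 121, and its rank in replicate 2 was 11313. The LIM gene ap (FBgn0267978, 2R, 5706202 to 5727525), the selector of the dorsal wing, had its summit at -136 bp with values of 157, 69.7 and 79.2, and its rank in replicate 3 was 9335. Conversely, ara was hit at a TSS in replicate 2 and Dr in replicate 3, so that 6 of the 9 genes were hit in all 3 lists. The reproducible list was made from both replicates, so these are not 3 independent readings. The matching share over all genes was not counted.

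All 10 TSS summits lay upstream of the nearest start of their gene, at a median of -213 bp, whereas 78.5% of the 2456 reproducible promoter summits did so, at a median of -128 bp. At ap that start is an internal one, and the summit lay inside the gene body. Within 50 bp of the summit the G+C content was 50% or more at 6 of the 10 (60%), namely at Dll, oc, ap, pdm3, vvl and mirr. Over all promoter summits the share was 9.69%, or 238 of 2456. The count was 6 of 10 in replicate 2 (all promoter summits 9.07%) and 4 of 9 in replicate 3 (9.44%). Among the promoter summits below the median signal of the reproducible list, the count was 5 of 6 at homeobox genes, against 16.9% of all. The level of 50% was chosen after the values had been seen, so no test was made.

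**Figure D4:**
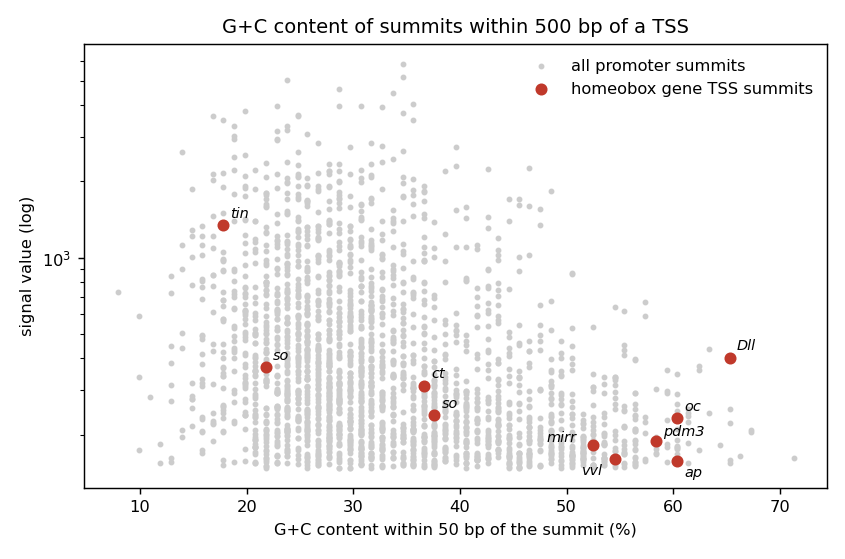
G+C content in percent within 50 bp of the summit (horizontal) against signal value (vertical, log scale) for the 10 homeobox TSS summits, named, and all 2456 reproducible promoter summits. The summits of Dll, oc, ap, pdm3, vvl and mirr lie at 50% or more, where 9.69% of all promoter summits lie, and tin stands apart at 17.8% with a value of 1342.

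Most summits lay away from the starts. At ct 8 were in reach, the most of the 57 genes, and 3 of them stood at or upstream of the first TSS. The summit at -3733 bp had a value of 1356 in the reproducible list, 296 in replicate 2 and 1061 in replicate 3, and the one at -2563 bp had 451, 124 and 338. The other 5 lay in introns, with reproducible values of 440.5, 275, 215, 161 and 152. In replicate 2 these had 185, 88.5, 74.9, 61.3 and 52.6, and in replicate 3 they had 251, 181, 156, 108 and 95.6, so their order was the same in all 3 lists. Each of the 8 was nearest to a TSS of ct itself, and all were found in both full replicate lists.

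The POU genes act in wing growth, trachea and neurons. At pdm3, 2 summits upstream had values of 354, 109 and 248 (-4608 bp) and of 279, 144 and 133 (-1473 bp) in the reproducible list, replicate 2 and replicate 3. The 3 in its introns were weaker in the reproducible list, at 233, 162 and 155, with 77.0, 57.9 and 42.3 in replicate 2 and 158, 82.5 and 111 in replicate 3. The nearest TSS to each of them was that of CG11635. At nub, a wing gene, the intronic summit had values of 742, 358 and 396 and lay nearest to the TSS of Ref2. The second nub summit, 231 in the reproducible list, 99.8 in replicate 2 and 115 in replicate 3, lay beyond the gene. For vvl the second summit was downstream, at 297, 93.4 and 191. The single summit of pdm2, a temporal factor of neuroblasts, lay at -875 bp with values of 236, 105 and 129.5, and it was the nearest one outside the TSS window, as the so summit at 428 bp was the farthest one inside.

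Among the LIM genes, Lim1, needed in leg and antenna, had 3 intronic summits with reproducible values of 191, 172 and 151. In replicate 2 they had 62.5, 69.3 and 51.3, and in replicate 3 they had 128, 112 and 94.7. A stronger one lay beyond its 3' end at 455, 172 and 288. Awh, required for histoblasts and other imaginal cells, had a pair in an intron with reproducible values of 343 and 192, and 1 downstream at 168. In replicate 2 these had 112, 85.6 and 36.7, and in replicate 3 they had 221, 117 and 120.5. At tup, the fly Islet gene of motor neurons and heart, the strongest of 3 had values of 1354, 528 and 805. That summit and one at 243, 128 and 73.9 lay at the promoter of CG10602, whereas the summit at -3298 bp, with 152, 69.1 and 79.8, was nearest to tup itself.

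The engrailed pair, which mark posterior compartments, showed an uneven split. In inv the 4 intronic summits had reproducible values of 774, 692, 671 and 399, and 3 of them stood close together, at 24553, 24800 and 25003 bp from the nearest inv TSS. In replicate 2 the summits of 774, 671 and 399 had 307, 278 and 173, and the one of 692 was matched by no peak. In replicate 3 the 4 had 419, 403, 396 and 309, in the order of their reproducible values. The fifth, just past the 3' end of inv, had 273, 107 and 156 and lay nearer to a TSS of en than to one of inv. Within 5 kb of en there was a single one, at 186, 83.8 and 93.7.

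The Iroquois genes act in notum bristles and wing veins as well as in the eye. Beside its TSS summit, mirr had 4 in introns with reproducible values of 290.3, 270.2, 255 and 159. The one of 270.2 had 96.2 in replicate 2 and 179 in replicate 3, and the one of 255 had 88.2 in replicate 2 and no match in replicate 3. The strongest and the weakest fell on the same replicate 2 peak, of 106, and had 206 and 34.3 in replicate 3. At caup there were 2 intronic summits, of 264, 48.5 and 205 and of 152, 47.2 and 111, and neither reached the 8015 strongest in replicate 2. At ara there was 1, of 257, 85.4 and 155.

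The zinc-finger homeodomain gene zfh1, which acts in mesoderm and muscle, had its highest summit within the gene at -1478 bp from its downstream TSS. The values there were 1334 in the reproducible list, 479 in replicate 2 and 842 in replicate 3. The others were at 256, 74.0 and 184 and, upstream, at 159, 68.4 and 93.5. In pros, the gene whose product triggers differentiation of neural daughter cells, the 3 intronic summits had reproducible values of 214, 164 and 148. In replicate 2 these had 96.3, 73.2 and 46.4, and in replicate 3 they had 127, 92.3 and 104. The last of them was nearest to a pros TSS and the other two to KP78b. The strongest in its reach, at 470.4, 195 and 286, lay beyond its 3' end at the shared start of mgr and Irbp. Of the 2 unpg summits, of 194, 63.2 and 115 and of 185, 57.2 and 138, both lay nearer to CG8026 and CG45085 than to unpg.

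**Figure D5:**
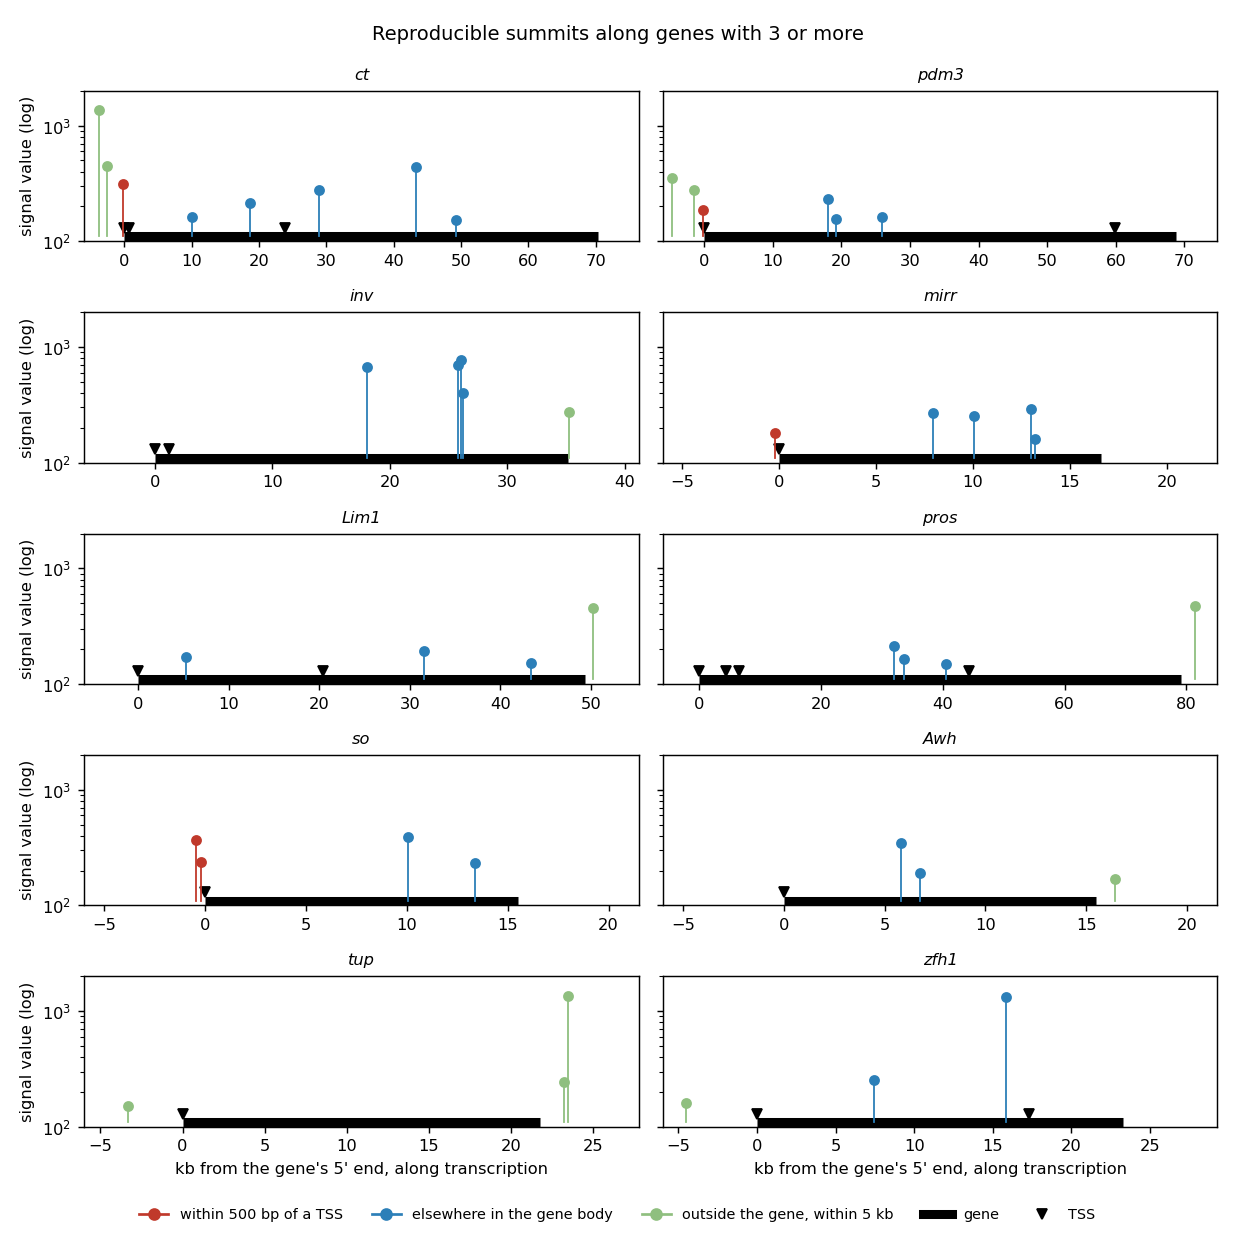
Reproducible summits along the 10 homeobox genes with 3 or more, at their distance in kb from the 5' end of the gene (horizontal) and their signal value (vertical, log scale), coloured by position. Black bars are the gene bodies and triangles the TSSs; ct, tup and zfh1 each carry 1 summit with a signal value of 1334 or more, and in tup it lies beyond the 3' end, at another gene's start.

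Counted strictly by nearest TSS, 23 of the 30 genes kept at least 1 summit of their own. The 7 whose summits all lay nearer to another gene were lbl, otp, Rx, Six4, unpg, cad and ro. The summit of cad, which patterns the posterior embryo, stood at the start of Pomp with 331, 91.3 and 246. That of the photoreceptor gene ro stood at the start of ms(3)K81 and Rb97D with 195, 62.1 and 145. For Six4, which acts in muscle and gonad mesoderm, it stood in an intron of Pcif1 with 185, 96.2 and 93.0, and for the brain gene Rx it was nearest to Act57B with 514, 250.1 and 277. The coding-exon summit of otp had 293 in the reproducible list, no match in replicate 2 and 268 in replicate 3, and the intronic summit of lbl, a muscle and heart gene, had 220.0, 66.8 and 156. The remaining single summits were nearest to the homeobox gene itself: Dr with 425, 149.6 and 269.5, Optix with 282, 136 and 147, and al with 221, 34.6 and 182.

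By homeodomain class, the ANTP class had a TSS summit at 2 of 21 genes and one within 5 kb at 9. The PRD class, which includes the Pax6 genes of eye development, had 1 of 15 at a TSS and 4 within 5 kb. At a TSS, genes of the same TSS number and length had a summit in 22.6% of cases for the ANTP class. That share was 25.6% for PRD, and over all protein-coding genes it was 20.5%. Summits within 5 kb were present at 4 of 5 LIM genes, 4 of 5 POU genes, 3 of 3 so-related genes (so, Six4 and Optix) and 3 of 3 Iroquois genes. They were also present at 1 of 2 CUT genes, 1 of 2 ZF genes and the single PROS gene. Within 5 kb the genes of the same TSS number and length had a summit in 58.8% of cases for the ANTP class, 64.6% for PRD, 75.7% for LIM and 73.1% for POU. For the so-related genes the share was 67.1% and for the Iroquois genes 64.0%. It was 69.8% for CUT, 70.9% for ZF and 88.4% for PROS, and over all protein-coding genes it was 53.1%. With so few genes per class these counts are a description, and no comparison between the classes was made.

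The 27 genes without a reproducible summit fell into those with and those without weaker peaks. The pooled list had a summit within 5 kb of 41 of the 57 genes, or 71.9% (all protein-coding genes 69.6%; same-class genes 81.0%). It had one within 500 bp of a TSS at 28, or 49.1% (all 40.3%; same-class 54.5%), and one in the body at 29, or 50.9% (all 28.2%; same-class 56.1%). In this longer list the homeobox genes lay between same-class genes and all genes in all 3 counts. A pooled but no reproducible TSS peak was found at 19 genes: en, inv, Lim1, tup, al, B-H1, B-H2, C15, Optix, eyg, toe, zfh1, zfh2, nub, pdm2, pros, ara, Dr and ro. Their pooled ranks ran from 8174, at ara, to 24711, at toe. The reproducible TSS summits of the homeobox genes had the same ranks in the pooled list, within its first 8015. Ranks past 8015 thus follow from how these 19 genes were chosen. Over all genes, 40.3% had a pooled and 20.5% a reproducible TSS summit, and 69.6% and 53.1% had one within 5 kb.

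A pooled peak but no reproducible one within 5 kb was present at 11 genes. They were the motor neuron gene Lim3, the Bar genes B-H1 and B-H2 of sense organs and distal leg, C15 of the leg tip, ems of the head, the Pax6 gene ey, the eye genes eyg and toe, the wing gene zfh2, the optic lobe gene Vsx1 and the olfactory neuron gene acj6. The body of zfh2 held 17 pooled summits and none of the reproducible list. The nearest reproducible summits outside the 5 kb limit lay 5045 bp from eyg and 5071 bp from acj6, while the farthest one inside lay 4764 bp from vvl.

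No pooled peak lay within 5 kb of 16 genes, and for 13 of these neither full replicate list had one. The 41 genes with a pooled peak were 71.9% of the 57, against 69.6% of all protein-coding genes and 81.0% of same-class genes. For the 13 no share over all genes was counted. The 13 were the pair-rule genes eve, ftz and prd, the segment polarity gene gsb and its neighbour gsb-n, the muscle genes slou, bap and lbe, the neuroblast gene ind, and Gsc, Ptx1, exex and hbn. The other 3, toy, onecut and vnd, had weak peaks in a replicate list. Genes without pooled peaks were shorter, with a median of 5.60 kb, against 12.8 kb for those with pooled peaks only and 18.2 kb for those with reproducible summits. A longer gene offers more sequence for a summit, and the part of length in this order was not tested beyond the same-class shares above.

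Groups of neighbouring homeobox genes, chosen after the values had been seen, held unequal numbers of summits. The NK cluster on 3R, from tin to slou, spans 178 kb and held 3 reproducible summits, while the Iroquois genes span 129.6 kb and held 13. Spans run between the outer gene ends, so the NK span leaves out both tin summits, which lie upstream of tin. In both spans some of the summits lay more than 5 kb from the named genes. No count for spans of other genes was set beside these. The inv and en pair span 53.7 kb with 7 summits. The Bar genes span 88.7 kb with 4, all of them more than 5 kb from either gene, and gsb and gsb-n span 24.3 kb with 0. The 4 genes on arm 4, namely ey, toy, zfh2 and onecut, had no reproducible summit within 5 kb, on an arm where 31.2% of 80 protein-coding genes did.

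At the summits, TAATTA was present within 50 bp at 9 of 71, or 12.7% (5.96 to 22.7), against 4.93% of windows centred 400 bp to either side. Over all reproducible summits the share was 11.0%, against 5.41% of their flanks, so the homeobox genes were near the whole list. The 9 summits belonged to nub, Rx, pros, Optix, pdm3, Lim1, zfh1 and caup. None of the 10 TSS summits held it, with an exact upper bound of 30.8%, against 11.0% of all 2456 promoter summits, a share below that bound. A GATA word was present at 22.5% (flanks 12.7%), against 22.9% of all summits (flanks 14.5%). The flanks were richer in G+C, with a median of 47.5% against 30.7% at the 71 summits. Over all summits the medians were 45.5% and 29.7%. Windows were not matched on base composition, and its part in the word shares, here and below, was not tested.

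GAGAG was present at 16 of the 71, or 22.5% (13.5 to 34.0), against 10.2% of all reproducible summits (9.56 to 10.9). The flanks of the 71 held it at 18.3%, inside the interval of the summits themselves, and the flanks of all summits held it at 14.9%. Of the TSS summits 3 of 10 held it, at oc, mirr and ap, with an exact interval of 6.67 to 65.2%. Among all promoter summits 295 of 2456 held it (10.8 to 13.4%), a share inside that interval. An ETS word (CAGGAAA or CAGGAAG or CCGGAAA or CCGGAAG) was present at 3 of 71, or 4.23% (0.880 to 11.9), with flanks at 6.34%, and at 2.45% of all summits, with flanks at 4.0%. The 3 were at vvl, caup and Dll. The word TAATCC was present at 2 of 71, or 2.82% (flanks 1.41%), at Awh and pros, against 3.53% of all summits (flanks 2.71%). The DRE word TATCGATA was present at none of the 71, against 0.524% of all summits. The median G+C content was 30.7% at the 71 summits (flanks 47.5%) and 29.7% at all summits (flanks 45.5%).

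The same counts were made for a pair of related lists. Of 40 other homeobox genes, which include the Hox genes, 5 had a TSS summit (12.5%) and 24 had one within 5 kb (60%), against 24.5% and 60.6% of same-class genes. Of 8 partners of homeodomain proteins, 4 had a TSS summit (same-class genes 35.3%) and 5 had one within 5 kb (same-class genes 71.3%). Among these, the TALE homeobox gene hth had 21 summits in reach, more than any of the 57, and NK7.1 had 10, with a best signal value of 2632 at rank 59. The corepressor gene gro, whose product binds several homeodomain proteins, had a best value of 1536, above every summit of the 57 genes.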

How the data were processed

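The labels place 2 ChIP-seq libraries in 1 group. According to the labels and to the description files that were deposited, the authors called peaks on dm6 for each replicate and for both pooled, each against a control, and kept reproducible peaks by IDR. The sources used here name no aligner, caller or threshold. Each deposited peak carries a signal value, used here as a score that ranks peaks within a list. Each also has a deposited −log10 q-value, which was 4.42 throughout the reproducible list and was not used further. The deposited offset of each summit from the peak start gave its 1-based position.

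Summits were set against Ensembl release 115 (19630 TSSs) in Python 3.11.15 with numpy 2.4.6, pandas 2.3.3 and scipy 1.17.1. Same-class genes share the number of TSSs (5 or more as 1 class) and the decile of length, and every other protein-coding gene of the class was used. A replicate peak matched by an overlap of at least 1 bp. Flanks for words were centred 400 bp away. Counting was checked on made-up genes. Intervals are exact Clopper-Pearson or Poisson intervals at 95%. No p-value was computed, because 1 group gives no comparison of conditions. Replicate agreement carries no more than the spread between these 2 libraries.

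All 57 genes are named, and values by list are given for genes with a TSS summit and for the 12 with most summits, ties included. The members, lists and words were chosen with earlier results of these data known.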

Additional observations from a re-analysis of the deposited data

How the results depend on the processing

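The 9 homeobox genes with a TSS summit became 3 with a window of 200 bp (5.26%; same-class genes 14.8%, all genes 13.6%), 4 in the stronger part of the reproducible list above its median signal (7.02%; same-class 14.6%, all 11.6%), and 28 in the whole pooled list. In that stronger part the body count of 16 became 6, or 10.5% (3.96 to 21.5; same-class 26.0%, all 9.44%), and the 5 kb count of 30 became 16, or 28.1% (17.0 to 41.5; same-class 47.5%, all 36.6%). Both same-class shares lay outside these intervals, with differences of -15.5 and -19.4 points, unlike in the whole reproducible list. A narrower window or fewer peaks lower the shares of all genes too, by construction. With classes of TSS number alone, the same-class body share was 19.2% in place of 38.3%, and the homeobox difference turned to 8.84 points in place of -10.2. In the same setting the TSS difference was -7.52 points in place of -11.6, and the 5 kb difference -3.05 in place of -12.5. These classes ignore that homeobox genes are long. With each summit given only to the gene of its nearest TSS, 9 genes kept a TSS summit (15.8%; same-class 22.8%, all 15.4%). The TSS difference was then -6.96 points in place of -11.6. Leaving out 1 replicate leaves the strongest peaks of the other, the same lists as described by replicate above, so it is no further check. It gave 8 to 9 genes at the TSS, 14 to 15 in the body and 30 within 5 kb. The densities were 0.303 to 0.353 per 10 kb. The TSS difference then ran from -13.5 to -13.1 points, the body difference from -14.9 to -11.9 and the 5 kb difference from -14.5 to -12.9.

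After seeing the data, 2 alternatives were added. Leaving out arm 4 gave differences of -10.4, -7.23 and -8.20 points (TSS, body and 5 kb). Taking comparison genes from the same arm gave -10.1, -4.03 and -8.26. That second setting also used coarser classes of TSS number and of length than the main one. The part of the arm in its differences cannot be told apart from that of the coarser classes. With 100 bp to either side of a summit the TAATTA share was 22.5% in place of 12.7%. The other counts of genes moved by less than 1.5 times. No paired analysis was possible because the labels hold 1 group. Read depth is unknown, so a gene without a peak is not shown to be unbound in these animals.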
